A study of Mus musculus with 8 samples.

Results

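The 10 LIM homeobox genes described here are Lhx1, Lhx2, Lhx3, Lhx4, Lhx5, Lhx6, Lhx8, Lhx9, Isl1 and Isl2, each taken as its gene body with 5000 bases on either side, and they are members of 1 gene family, of which Lmx1a and Lmx1b stand in a list of comparison below. Reduced representation bisulfite sequencing (RRBS) reads methylation on fragments that the enzyme MspI cuts at CCGG, and it had been applied to liver DNA of 8 mice aged 16 weeks and fasted for 16 h. There was 1 female and 1 male of each of 4 kinds: C57BL/6J (B6), DBA/2J (DBA), the BXD F1 cross (B6 mother, DBA father) and the reciprocal DXB F1 cross (DBA mother, B6 father), with no other allele or treatment. A CG here means 1 strand of a CG dinucleotide, and its methylation level is the percentage of reads that kept the cytosine unconverted. The family held 1909 CGs with at least 10 reads in some mouse, of 1410966 in the series, and 278 with 10 reads in all 8 mice, of 176945. All 10 genes had CGs of the second kind, from 3 in Lhx3 and 6 in Lhx8 to 58 in Lhx2, and Lhx9 had 7. Since each strain and sex was 1 mouse, the spread between mice mixes strain, sex and library.

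LIM homeobox genes encode transcription factors that carry a pair of zinc-binding LIM domains beside a DNA-binding homeodomain. The LIM domains bind the adaptor LDB1, and LMO proteins compete for it. The genes direct the formation of neurons, pituitary, kidney, limb and gonad in the embryo, and most are silent in adult hepatocytes. Genes of this kind commonly have several CpG islands, which are stretches rich in CG dinucleotides that usually stay unmethylated also where the gene is silent. RNA was not analysed here, so silence in these livers is background and not a measurement.

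The libraries differed in breadth. Between 527351 (DBA male) and 1227747 CGs (B6 female) had 10 reads, with a mean depth at those CGs of 51.6 to 96.3 reads. Unconverted cytosines outside CG made up 0.261% (B6 male) to 0.959% (DXB female) of such calls around the 10 genes. In the library labelled B6 male, reads sorted to the DBA chromosome made up 46.6% of sorted calls within 1 Mb of Isl1, 58.7% around Isl2 and 5.56% around Lhx3, and under 1% around the other genes that had sorted calls, with only 13 such calls around Lhx2. The comparison of male parents below is given with that share for Isl1 (51 CGs) and Isl2 (87 CGs).

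CG methylation around the LIM homeobox genes was lowest in promoter islands and higher, on average, in other islands, shores and the remaining sequence. CGs were placed in islands that overlap a promoter (1000 bases before to 500 after a start), in other islands, in shores within 2000 bases of an island, or in the remaining sequence. Over CGs read in all 8 mice, promoter islands had a mean level of 5.71% ± 1.37 (SD over mice, n = 8, 117 CGs) and other islands 10.6% ± 1.68 (100 CGs). Shores had 15.2% ± 1.81 (56 CGs), and the remaining sequence had 46.0% ± 8.42 but only 5 CGs, which lie in Lhx3, Lhx6 and Lhx9. The step from one class to the next was larger than its spread between mice. Other islands exceeded promoter islands by 4.93 ± 0.659 percentage points, shores exceeded other islands by 4.53 ± 0.632 points, and the remaining CGs exceeded shores by 30.8 ± 9.36 points, each in 8 of 8 mice. These pooled steps depend on which genes hold the CGs. Without Lhx1 the step between the islands was 1.16 points. Within genes that hold both classes, remaining CGs exceeded shores by a mean of 7.97 points. By gene this was -38.1 in Lhx3, 16.7 in Lhx6 and 45.4 in Lhx9. Over promoter islands the mean was 21.0 points, with 1.11 in Lhx3 and 40.9 in Lhx6. Both alternatives were chosen after the data were seen.

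Individual mice kept this order although their levels differed. In promoter islands the lowest mouse was the BXD male at 4.03%, the median was 5.38% and the highest was the DBA male at 7.95%. In shores the BXD male was again lowest at 12.7%, the median was 14.8% and the DBA male was highest at 17.8%. In the remaining CGs the DBA male was the lowest mouse at 32.2%, with a median of 46.8% and the DXB female highest at 58.7%. The B6 male and DBA male, the 2 libraries with the fewest CGs, were the highest in promoter islands of these genes and also in those of the 3 other gene lists below, and the part of library breadth in this was not tested. Leaving out the DBA male widened the set to 207, 195, 130 and 15 CGs, and the means over 7 mice were 5.37%, 9.39%, 15.1% and 52.8% in the same order of classes.

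**Figure D1:**
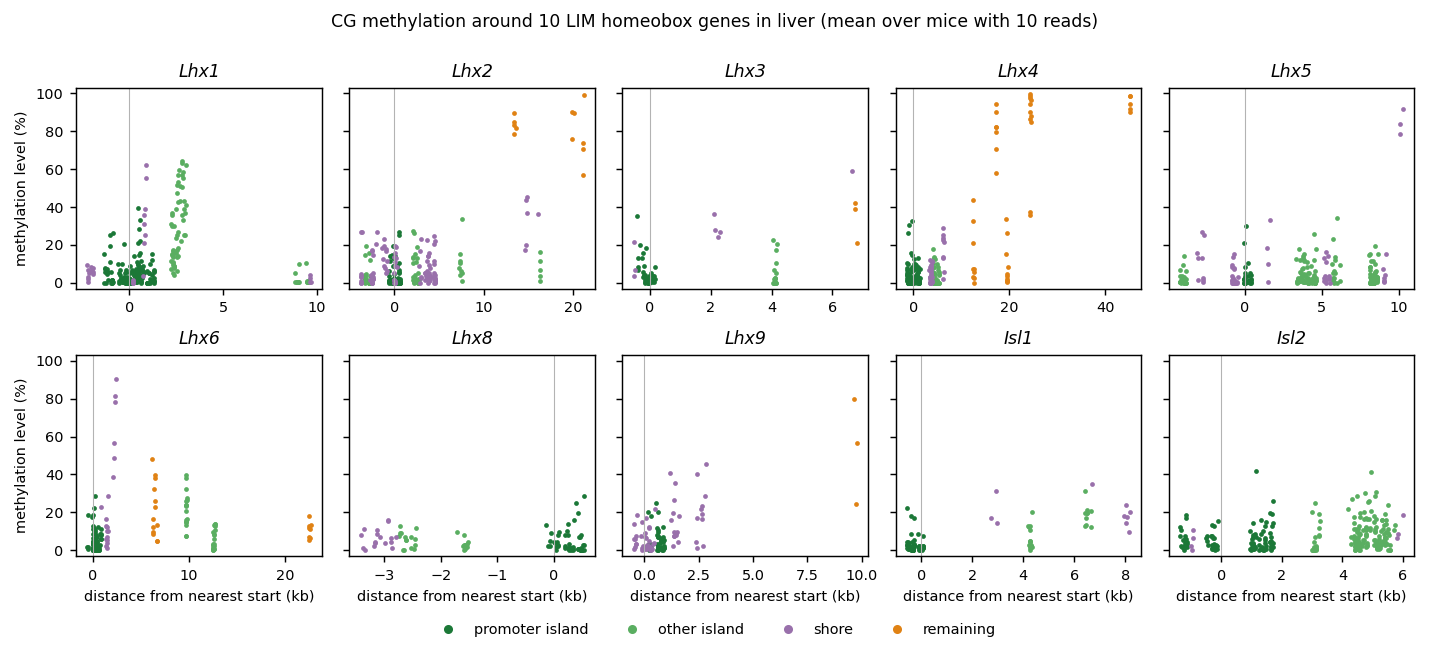
Mean methylation level (percent, over the mice with 10 reads) of each CG against its distance in kb from the nearest annotated start of the gene, 1 panel per gene; colours give promoter islands, other islands, shores and remaining sequence. Most promoter island CGs lie under 10% in every panel, with single ones up to 42.0% (Isl2). Lhx1 has a raised island within its body, and high levels lie in the remaining sequence of Lhx2, Lhx4 and Lhx9 and at the outer shores of Lhx5 and Lhx6.

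The wider set of CGs, read in any mouse, showed the same layout. Of 817 CGs in promoter islands, 719 had a mean level under 10% and 0 had one over 50%. Of 657 CGs in other islands 468 were under 10%, and all 12 over 50% lay in Lhx1. Of 82 remaining CGs 35 were over 50%, of which 21 belonged to Lhx4 and 12 to Lhx2.

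Lhx9, a gene needed for formation of the gonads, lies on the minus strand at chr1:140721763-140745153 (mm9). No CG of its promoter island had 10 reads in all 8 mice. Without the DBA male 8 CGs of the island had a mean of 3.37% ± 1.33 (SD, n = 7), from 1.76% in the DBA female to 5.21% in the B6 male. A stretch of that island within an intron is shown because it carries the low levels, with its 4 CGs in capitals.
Lhx9 promoter island, chr1:140738081-140738111 (plus strand): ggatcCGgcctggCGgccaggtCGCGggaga
The 4 CGs had mean levels of 1.07% to 5.49% over the 7 mice. The 4 shore CGs read in all mice had a mean of 8.22% ± 1.57 (n = 8), lowest in the B6 female at 5.56%, with a median of 8.47% and highest in the BXD female at 10.7%. Without the DBA male 25 shore CGs of Lhx9 had 13.2% ± 1.76 (n = 7). The 3 remaining CGs of Lhx9, between 9629 and 9787 bases from a start, were far higher at 53.6% ± 10.1, from 34.9% in the DBA male through a median of 53.0% to 68.5% in the DXB female. The class means of the 8 mice did not overlap. The difference was 45.4 ± 10.03 points in 8 of 8 mice (two-sided exact sign-flip permutation test over mice, p = 0.0078, the smallest that 8 mice allow). Here and below this test asks only whether the mice agree on a difference between fixed sets of CGs. It takes no account of which CGs or genes happened to be read, so even 1 CG against 1 CG can reach the smallest p.

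The other genes repeated parts of this pattern with different strength. Between classes of 1 gene 23 comparisons were possible, and where all 8 mice moved one way the exact permutation p was 0.0078, or 0.0120 after Benjamini-Hochberg adjustment over the 23. The adjustment covers these genes alone, so the count of mice and the size of the step carry the description.

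Lhx1 and Lhx5, which act in head formation and Lhx1 also in kidney, are a closely related pair. Lhx1 (chr11:84331479-84338923, minus strand) had 5.50% ± 2.04 in 31 CGs of promoter islands and 22.3% ± 2.88 in 24 CGs of other islands, a step of 16.8 ± 3.13 points in 8 of 8 mice (exact permutation p = 0.0078). Its mice ran from 18.5% (BXD male) to 27.0% (BXD female) in the other islands. Shores of Lhx1 were at 28.2% ± 9.81 on 2 CGs. They were 5.91 ± 8.25 points above its other islands, which did not pass (exact permutation p = 0.0781). Without the DBA male the shores of Lhx1 (13.6%, 7 CGs) lay below its other islands (25.2%, 31 CGs). Lhx5 (chr5:120881895-120891466, plus strand) had the lowest promoter islands of the family, 2.36% ± 0.609 in 11 CGs. Its other islands were at 5.94% ± 1.93 (24 CGs) and its shores at 23.5% ± 3.08 (8 CGs). The shores of Lhx5 were 17.5 ± 3.72 points above its other islands in 8 of 8 mice (exact permutation p = 0.0078), and 3 CGs past the end of the gene reached 78.4% to 91.8%. In the 3 broadest libraries (B6 female, DBA female and BXD male) the shores had 11.7% (39 CGs) and other islands 3.51% (123 CGs). Most shore CGs read in any mouse were low, 43 of 60 under 10%, with a median of 2.54% beside 1.92% in other islands.

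The raised part of Lhx1 was 1 island of 1301 bases within the gene body, chr11:84332870-84334170, that covers coding exon and intron. It held all 12 island CGs over 50% in the family. The 7 CGs read in all mice that lie over 2500 bases from the start had a mean of 50.8%, from 36.1% to 63.2% by CG and from 42.4% (BXD male) to 58.3% (B6 female) by mouse. The 11 CGs of the same island nearer to the start had a mean of 14.3% and a median of 9.11%, and by mouse from 11.4% (DXB male) to 22.0% (BXD female). The ranges of the mice did not overlap between the 2 ends of the island. The dividing distance was chosen after the levels were seen, so this contrast has no test. The coding stretch with the highest levels follows, with its CGs in capitals.
Lhx1 body island, chr11:84333373-84333413 (plus strand): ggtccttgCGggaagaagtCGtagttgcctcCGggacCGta
Its 6 measured CGs had mean levels of 50.8% to 64.4%. The highest island CG of the family, at 84333405, is the minus strand of the third CG in capitals. Over the other 9 genes the order of the region classes was as in the whole family, with the smaller step between islands given above.

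**Figure D2:**
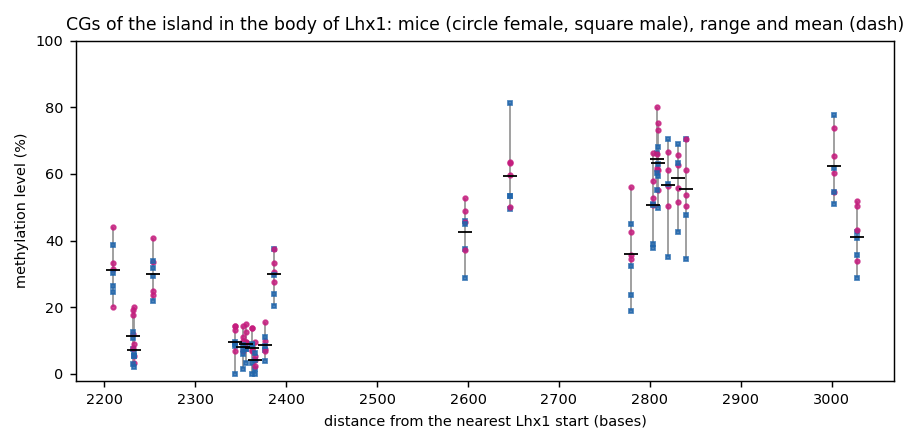
Methylation level (percent) of CGs in the island within the body of Lhx1 that had 10 reads in at least 6 mice, against distance in bases from the nearest Lhx1 start; circles are females, squares males, lines span the mice and dashes are means. CGs beyond 2500 bases average 50.8% and those nearer 14.3% over the CGs read in all 8 mice.

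Lhx2, which patterns forebrain and eye and is active in hepatic stellate cells, lies at chr2:38194801-38225253 (plus strand). Its promoter islands were at 5.09% ± 1.09 (17 CGs), its other islands at 9.02% ± 2.51 (12 CGs) and its shores at 8.95% ± 2.18 (29 CGs). Other islands exceeded promoter islands by 3.93 ± 1.71 points in 8 of 8 mice (exact permutation p = 0.0078), while shores minus other islands was -0.07 ± 1.27 points, less than the spread (exact permutation p = 0.883). Without the DBA male the shores of Lhx2 were at 12.5% (42 CGs) and its other islands at 7.34% (20 CGs). Its 12 remaining CGs, 13334 to 21188 bases from a start, were all over 50% with a median of 82.5%. In the 7 mice other than the DBA male, 6 of them had 83.5% ± 3.09, from 79.2% to 86.8%.

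Lhx3 and Lhx4 act together in pituitary formation. Lhx4 (chr1:157548827-157589157, minus strand) had low class means in its islands and shores. Promoter islands were at 6.01% ± 1.56 (12 CGs), other islands at 4.01% ± 1.51 (15 CGs) and shores at 6.04% ± 4.39 (2 CGs). Of its CGs read in any mouse, single ones reached 32.4% in promoter islands and 28.9% in shores. Among genes with both island classes read in all 8 mice, Lhx4 alone had other islands below promoter islands. The difference was -2.005 ± 1.03 points, with 8 of 8 mice below 0 (exact permutation p = 0.0078). Over CGs read in any mouse, Lhx3 also had lower other islands (median 0.347%, 22 CGs) than promoter islands (median 2.86%, 40 CGs). In the 7 mice other than the DBA male, other islands of Lhx4 were at 4.32% (19 CGs) and promoter islands at 5.48% (22 CGs). Its remaining CGs were mixed, with a median of 43.8%, 21 of 43 over 50%, 14 under 10% and single CGs up to 99.4%. The 5 past the end of the gene were at 90.0% or more, while stretches of the introns were low. Lhx3 (chr2:26055732-26063769, minus strand) had only 1 CG per class in all 8 mice. Its promoter CG ran from 5.93% (DXB female) through a median of 13.2% to 48.5% (DBA male), and its shore CG from 46.9% (BXD male) to 67.2% (B6 male). Without the DBA male, 10 promoter CGs of Lhx3 had 2.499% ± 0.916 (n = 7), so the high promoter mean of Lhx3 rested on that CG. Its remaining CG went against the order of the family, with 21.0% ± 7.34 and a difference from the shore CG of -38.1 ± 12.1 points, below 0 in 8 of 8 mice (exact permutation p = 0.0078). This too rested on 1 CG a class, since without the DBA male the shores of Lhx3 were at 25.99% (7 CGs) and its remaining CG at 22.2%, and in the 3 broadest libraries the remaining CGs (35.2%, 3 CGs) lay above the shores (25.1%, 8 CGs).

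Lhx6 and Lhx8 specify forebrain neurons. Lhx6 (chr2:35937470-35960928, minus strand) rose from 7.17% ± 1.59 in promoter islands (6 CGs) to 31.4% ± 2.62 in shores (6 CGs), a step of 24.2 ± 2.83 points in 8 of 8 mice (exact permutation p = 0.0078). Its 1 remaining CG read in all mice had 48.1% ± 12.7, but 5 such CGs in the 7 mice other than the DBA male had 19.97% ± 3.79. In those 7 mice the shores of Lhx6 lay higher, at 24.7% (9 CGs). The 3 broadest libraries also had higher shores (20.7%, 17 CGs) than remaining CGs (12.9%, 14 CGs) in this gene. Lhx8 (chr3:153969260-153993615, minus strand) had no promoter CG in all 8 mice, other islands at 4.86% ± 3.09 (4 CGs) and shores at 13.1% ± 4.97 (2 CGs). The shores were higher in 8 of 8 mice, by 8.20 ± 5.42 points (exact permutation p = 0.0078). With the DBA male left out they were at 9.99% (5 CGs) and the other islands of Lhx8 at 6.56% (7 CGs).

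Isl1 and Isl2 act in motor neurons, and Isl1 also in heart and pancreas. Isl1 (chr13:117088478-117099896, minus strand) had CGs in all 8 mice only in its promoter island, at 4.91% ± 1.63 (15 CGs), from 2.52% (BXD male) to 7.89% (B6 male). Isl2 (chr9:55386479-55393987, plus strand) had 7.34% ± 1.46 in promoter islands (24 CGs), 9.41% ± 2.07 in other islands (21 CGs) and 13.6% ± 5.74 in shores (2 CGs). The step between the islands was 2.07 ± 1.28 points in 8 of 8 mice (exact permutation p = 0.0078), and that from other islands to shores, 4.15 ± 4.85 points, did not pass (exact permutation p = 0.0547). Without the DBA male the shores of Isl2 were at 8.47% (5 CGs) and its other islands at 8.79% (40 CGs).

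Set against the mean of its relatives over CGs read in all 8 mice, Lhx9 had lower shores and higher remaining CGs. Both differences rested on few CGs. Its shores stood at 8.22% against a mean of 23.0% over 8 other family members, a difference of -14.8 ± 2.96 points and lower in 8 of 8 mice (exact permutation p = 0.0078). With the DBA male left out, which raised the Lhx9 shore CGs from 4 to 25, the difference was -2.32 points, while on the CGs read in all 8 mice the single mice ran from -19.0 to -10.7 points. All 4 Lhx9 shore CGs lie before an annotated start, at -395 to -363 bases from it, within the promoter window but outside an island. With a minimum of 5 reads the shore difference was -7.95 points, and without Lhx3, which had 1 shore CG, it was -9.60 points. By gene, the shores of Lhx4 lay lower at 6.04% (2 CGs), and Lhx2 came next above at 8.95% (29 CGs). Without the DBA male, shores of Lhx2 (12.5%), Lhx8 (9.99%), Isl2 (8.47%) and Lhx4 (6.47%) lay below those of Lhx9 (13.2%). Those of Lhx1, Lhx3, Lhx5, Lhx6 and Isl1 lay above. The remaining CGs of Lhx9 were 19.1 ± 7.57 points above the mean of Lhx3 and Lhx6, which had 1 such CG each (exact permutation p = 0.0078). This was 4.21 points at a minimum of 5 reads and 5.53 points without Lhx3, and with stricter islands it turned to -4.62 points. In the 3 broadest libraries (B6 female, DBA female and BXD male) the remaining CGs of Lhx4 (86.7%, 5 CGs) and Lhx2 (84.6%, 8 CGs) lay above those of Lhx9 (53.9%, 3 CGs). The 5 Lhx4 CGs lie on 1 short stretch of intron and include the CG called between the female parents below. Over its 43 remaining CGs read in any mouse the median was 43.8%.

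The other 3 gene lists placed these levels. Of a list of 15 other developmental regulators, 12 had promoter island CGs read in all 8 mice. Their median level per gene was 4.81%, from En2 at 2.48% to Otx2 at 8.72%. The LIM homeobox genes had 5.76% (8 genes, without Lhx8 and Lhx9), from Lhx5 at 2.36% to Lhx3 at 19.8%. Over 7253 genes the median was 3.57%. In shores the LIM homeobox genes had a median of 13.6% (9 genes) and the developmental regulators 11.2% (12 genes, Pax3 at 5.75% to Sim1 at 18.98%). Both were far under the median of 39.5% over 4788 genes, whose lower quartile was 13.3%.

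A further list joined partners of LIM homeodomain proteins, namely the adaptor genes Ldb1 and Ldb2 with their Ssbp and Lmo companions, to Lmx1a and Lmx1b, which are LIM homeobox genes themselves. Its median shore level was 59.9% over 7 genes, from Lmo3 at 6.59% to Ssbp4 at 93.4%. Lmx1b was at 16.9% (7 CGs) and Lmx1a at 72.9% (1 CG). Over the CGs read in the 3 broadest libraries the median of the list was 23.3% over 10 genes, where the 10 described genes had 10.3%. Shores of Lmx1a were at 21.4% (5 CGs) in those libraries, and shores of Lmx1b at 12.8% (34 CGs). In the remaining sequence the list ran from Ldb1 at 7.38% to Lmx1a at 93.1%. Pooled over CGs, shores of the 10 described genes minus those of this list gave -32.9 ± 0.637 points, below 0 in 8 of 8 mice, and promoter islands gave 1.60 ± 0.931 points. Genes active in liver, of which 9 of 10 had CGs, had a median promoter island level of 4.13% (3 genes, Cebpa at 2.69% to Prox1 at 8.17%). Outside islands and shores they had 43.4% (6 genes, Apob at 21.3% to Prox1 at 88.1%), against 48.1% in 3 LIM homeobox genes and 84.8% over 9429 genes. These values do not tell liver from another tissue, so the tissue label was not checked.

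**Figure D3:**
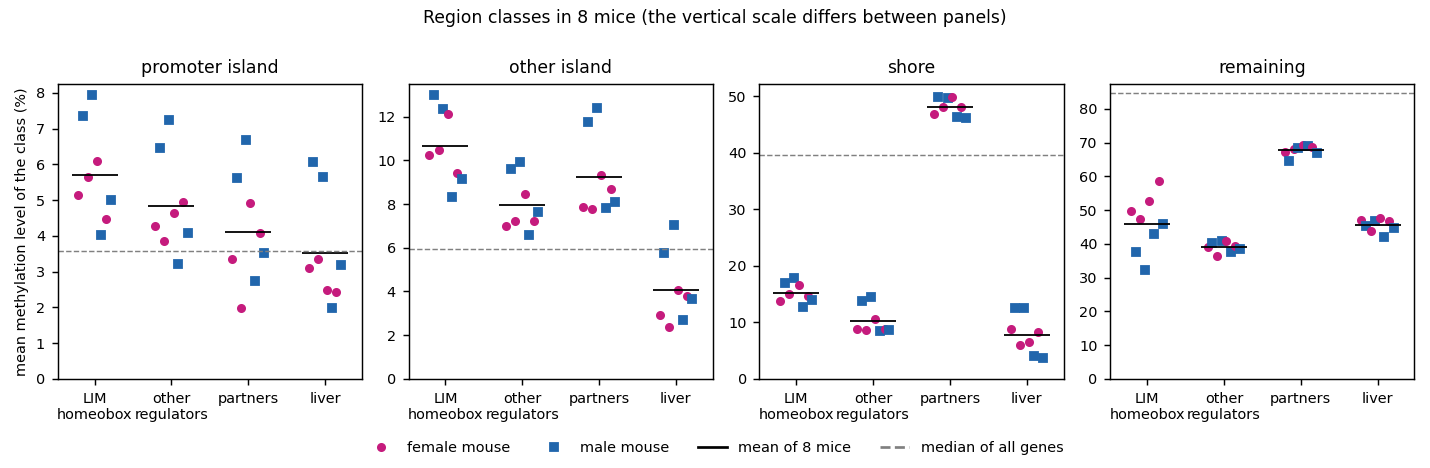
Mean methylation level (percent) of CGs in each region class, 1 point per mouse (circles female, squares male), for the 10 LIM homeobox genes, 15 other developmental regulators, the list of partner genes with Lmx1a and Lmx1b, and genes active in liver; lines are means of 8 mice and the dashed line is the median over all genes, and the vertical scale differs between panels. Shores of the LIM homeobox genes lie at 12.7% to 17.8%, under the median of 39.5% over all genes. The points pool CGs, while the dashed line is a median of gene means. In other islands that median is 5.94%, where the mean over CGs of all genes is 27.5%.

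Spread among mice holds strain, sex and library together with counting error. The median SD over 8 mice was 3.11 points at CGs of the family, which had a median of 91 reads per mouse. Binomial counting at the depth of each CG gives a median of 2.81 there. At 132745 CGs of all genes the median SD was 2.95 points, where counting gives 2.65. In promoter islands the family had 2.16 points where counting gives 2.11, and all genes had 1.19 where counting gives 1.14. Taken CG by CG, the median ratio of the SD to the counting SD in promoter islands was 1.21 in the family and 1.10 over all genes. Over all region classes the ratio was 1.19 in the family and 1.15 over all genes. The SD was over 10 points at 34 of 278 family CGs (12.2%) and at 11.1% of all gene CGs. It was over 2 times the counting SD at 38 of 278 family CGs and at 15506 of the 132745 CGs of all genes. The 5 remaining CGs varied most, with a median SD of 12.5 points where counting gives 6.43.

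Strain calls at single CGs were few in the family and over all CGs, and counts this small do not set the family apart. By the rule of the study, which asks for 10 reads in both mice, levels that lie outside each other's 95% binomial interval and a gap over 50 points, 1 of 1246 family CGs was called between the female parents. The background was 0.549% of 887155 CGs. Between the male parents 0 of 574 family CGs were called, beside 0.422% of 322948 CGs. Region class bore on the female rate, since 0.0261% of promoter island CGs of all genes were called, 0.433% in other islands, 0.466% in shores and 0.869% in the remaining sequence, and the family had 534, 409, 270 and 33 CGs in these classes. The typical gap was small, with a median of 1.83 points between females and 2.13 points between males at the family's CGs. Apart from Lhx4, the widest gap between the female parents in a gene ran from 13.5 points in Lhx8 to 38.1 points in Lhx6. Intervals cover counting error only, since PCR reads without molecular tags are not independent molecules.

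The called CG lies in an intron of Lhx4 at chr1:157564757, 24400 bases from a start. It is the third of the 4 CGs in capitals below, shown because the call rests on it and its neighbours share its reads.
Lhx4 intron, chr1:157564732-157564783 (plus strand): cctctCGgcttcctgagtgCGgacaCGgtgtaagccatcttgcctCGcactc
Methylated reads were 14 of 14 in the B6 female (exact 95% interval 76.8% to 100%) and 0 of 11 in the DBA female (0% to 28.5%). The DBA male had 0 of 82 and the BXD male 21 of 43. The B6 male had 4 of 5, under the minimum of reads, and the other F1 mice had no read. The 2 B6 mice were thus high, the 2 DBA mice at 0 and the F1 male between them. In that BXD male, reads sorted to the B6 chromosome had 21 of 24 methylated and reads sorted to the DBA chromosome 0 of 19. The 2 CGs to its left were methylated in both strains in the same reads, with 13 of 14 and 14 of 14 reads in the B6 female and 10 of 11 and 11 of 11 in the DBA female. On the minus strand of the called CG the DBA male had 0 reads, although it had 17 at the CGs on either side at 157564752 and 157564778. Whether the DBA chromosome carries another base at this CG was not tested, and the authors left C/T SNPs out of their SNP calls. A CG of the minus strand nearby, at 157564794, was picked after its values were seen, and there the DBA male had 0 of 17 while the BXD female, BXD male and DXB female had 6 of 12, 19 of 44 and 5 of 10.

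A fit over all 8 mice gave no strain call in the family. It counts the B6 male as free of DBA chromosomes also at Isl1 (15 CGs) and Isl2 (47 CGs), where sorted reads of that library went in part to DBA, and without that library it gave 0 calls as well. With limma, levels were regressed on the number of DBA chromosome sets with sex as a covariate, and 312 of 173739 autosomal CGs (0.18%) passed at an adjusted p below 0.05. None of the 278 family CGs did, and the smallest adjusted p among them was 0.247. Unadjusted p values under 0.05 were found at 14 of them, beside 6.20% of all CGs (10774). For gene means, 69 of 10076 genes passed (0.685%). The 9 family members with at least 5 CGs, all but Lhx3, gave 0 calls and 0 unadjusted p under 0.05, beside 612 of the 10076 genes, and their slopes ran from -1.59 points per DBA chromosome set in Lhx8 to 1.28 in Lhx6.

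Sex differences did not pass a test at any LIM homeobox gene, and the counts below include Lhx9, which the study had named in that comparison, so that its own values are a description. The study's thresholds, an unadjusted p under 0.001 and a gap over 20 points, were applied with a minimum added here of 10 reads in at least 3 mice of each sex, and 0 of 717 family CGs were called, beside 0.0298% of 443408 autosomal CGs. In the family 30 CGs had an unadjusted p under 0.05, beside 3.46% of the autosomal CGs (15346), and 3 had a gap over 20 points, beside 3469 of the autosomal CGs. Limma on CGs read in all 8 mice called 0% of 173739 CGs for sex, with 7694 under 0.05 unadjusted, 18 of them among the 278 of the family. For gene means 5 of 10076 genes passed (0.0496%), and 0 of the 9 family members.

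The 3 wide gaps lie in Lhx9, Lhx4 and Isl2. In Isl2 the gap was made by 1 mouse: at chr9:55390385 the DBA female had 8 of 12 reads methylated, while the BXD female, DXB female, B6 male, DBA male and DXB male had 0% to 2.82%. In the promoter island of Lhx4, at chr1:157589448, females had 45.8%, 31.2% and 54.5% (B6, BXD and DXB) and males 7.69%, 35% and 20% (DBA, BXD and DXB), so that the groups overlapped. In Lhx9 the groups did not overlap.

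The Lhx9 CG at chr1:140729219, in an intron, was higher in each female than in any male. Females had 61.8% (B6), 63.6% (DBA), 80% (BXD) and 75% (DXB), and males had 39.0%, 22.7%, 58.8% and 51.9% in the same order. The next CG, at 140729265, had 30.9%, 31.8%, 33.3% and 37.5% in females and 9.76%, 11.4%, 19.8% and 22.2% in males. Both CGs had the same number of reads in every mouse, from 22 in the DBA female to 177 in the BXD male, so they are not independent of each other. Female means exceeded male means by 27.0 and 17.6 points. The stretch is shown with both CGs in capitals, the first of which lies in an MspI site.
Lhx9 intron, chr1:140729214-140729271 (plus strand): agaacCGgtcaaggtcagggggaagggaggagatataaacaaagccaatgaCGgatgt
The other CG of Lhx9 outside islands and shores, at 140729377 in a coding exon, showed no such order. It had 83.2%, 56.5%, 73.8% and 93.1% in females and 94.2%, 70.6%, 79.1% and 86.0% in males. Across the family the sexes did not overlap at 9 of 278 CGs, 7 of them higher in females, beside a background of 2.13% of autosomal CGs (3693 of 173739, of which 2452 were higher in females). Of these 9, 3 lay in Lhx9 and 2 in Lhx1. The third of Lhx9, a shore CG at 140744545, went the other way, with 0% in each female and 3.49% to 9.09% in males. It rested on few methylated reads, 1 of 11 (B6), 3 of 39 (DBA), 3 of 86 (BXD) and 1 of 13 (DXB) in males. Females had 0 of 27, 0 of 14, 0 of 20 and 0 of 11 in the same order. The Lhx5 and Isl2 CGs among the 9 had female minus male gaps of -1.20 and 1.05 points, on 1 to 3 methylated reads per mouse of the higher sex. The widest gap outside Lhx9 was 18.8 points at an Lhx1 shore CG.

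**Figure D4:**
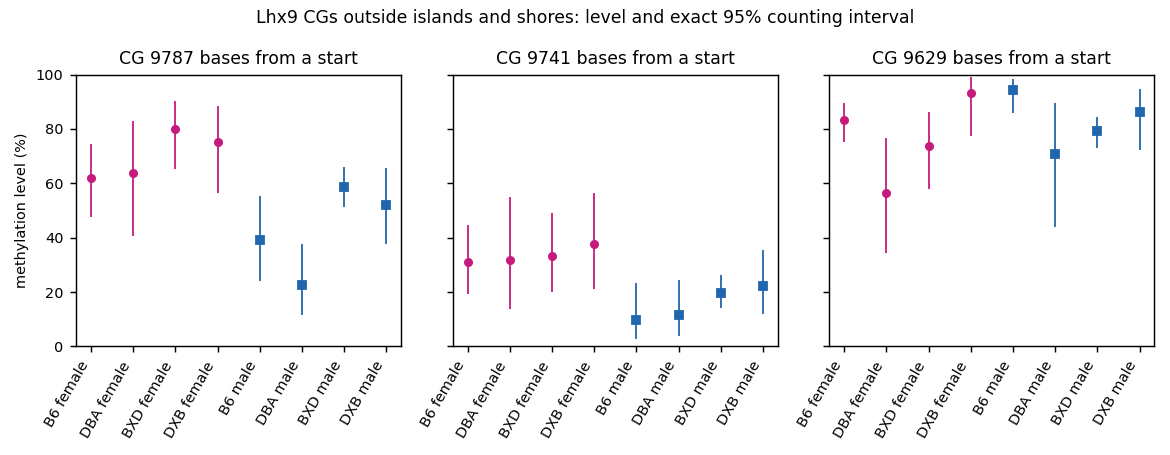
Methylation level (percent) with exact 95% counting interval in each mouse (circles female, squares male) at the 3 Lhx9 CGs outside islands and shores, titled by distance in bases from a start. At the CG 9787 bases away females lie at 61.8% to 80% and males at 22.7% to 58.8%. The interval of each female there overlaps those of the BXD male and DXB male. At the CG 9741 bases away females lie at 30.9% to 37.5% and males at 9.76% to 22.2%. There the interval of each female overlaps that of each male.

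The mean over the 7 Lhx9 CGs followed these CGs. It was 28.3% (B6), 26.8% (DBA), 32.9% (BXD) and 34.6% (DXB) in females and 24.3%, 19.98%, 27.2% and 27.3% in males, 5.95 points apart with an SE of 2.14. With each mouse left out in turn the gap on the same 7 CGs ran from 4.38 points (without the DBA male) to 7.23 points. Leaving out the DBA male also admits more CGs, 36 in all and mostly low ones, and over those the gap was 1.49 points. At a minimum of 5 reads it was 2.70 points. F1 mice had a mean of 30.5% and parents 24.9%. In limma with sex as a covariate, 0% of 10076 genes differed between F1 mice and parents after adjustment, 978 did so unadjusted, and the Lhx9 gap of 5.61 points (SE 1.11) had an adjusted p of 0.298. On the same 7 CGs the gap ran from 3.98 points without the DBA male to 6.76 points without the B6 female. Over the CGs read in all mice kept it was 0.17 points without the DBA male (36 CGs), 2.71 points without the B6 male (14 CGs), 3.05 points without the DXB female (11 CGs) and 3.70 points without the DBA female (10 CGs). The other 8 members with a value had lower F1 means, from -2.38 points in Lhx1 to -0.745 points in Lhx5, beside a median of -0.666 points over all genes, and none passed (smallest adjusted p 0.535).

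The cytosines that the authors list as sex-specific in Lhx9 lie elsewhere, and they rest on few female reads. The list holds 5 cytosines of Lhx9 and 0 of the other 9 genes. All 5 are outside CG, 3 followed by a G after the next base (CHG) and 2 not (CHH), and they lie close together on 1 MspI fragment of 206 bases in an intron, 2852 bases from a start. Its plus strand is shown with the listed cytosines in capitals.
Lhx9 fragment, chr1:140736155-140736360 (plus strand): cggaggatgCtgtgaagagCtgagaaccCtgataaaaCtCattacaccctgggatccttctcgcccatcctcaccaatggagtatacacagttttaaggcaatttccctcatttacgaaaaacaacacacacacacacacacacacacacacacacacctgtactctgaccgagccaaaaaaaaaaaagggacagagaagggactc
At each of the 5 cytosines the unconverted reads were 2 of 2 in the B6 female, 2 of 2 in the BXD female and 1 of 1 in the DXB female. The males had 0 of 95 (B6), 0 of 1 (DBA) and 0 of 2 (BXD), and the DBA female and DXB male had no read. No female reached 10 reads, so the minimum used for every other result here would leave these cytosines out.

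The same few female reads were unconverted over most of their length. Of all non-CG calls on the plus strand of the fragment, 47 of 50 were unconverted in the B6 female (94%), 22 of 22 in the BXD female (100%) and 7 of 11 in the DXB female (63.6%). The B6 male had 1 of 2084 (0.048%), and the DBA and BXD males had 0 of 22 and 0 of 50. On the minus strand, read from the other end of the fragment, the BXD female had 0 of 330, the DXB female 8 of 297 (2.69%) and the DXB male 0 of 274. Conversion failure within single reads and methylation of these cytosines cannot be told apart from so few reads. CG calls on the plus strand were 70 of 190 in the B6 male (36.8%) and 4 of 4 in the B6 female.

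**Figure D5:**
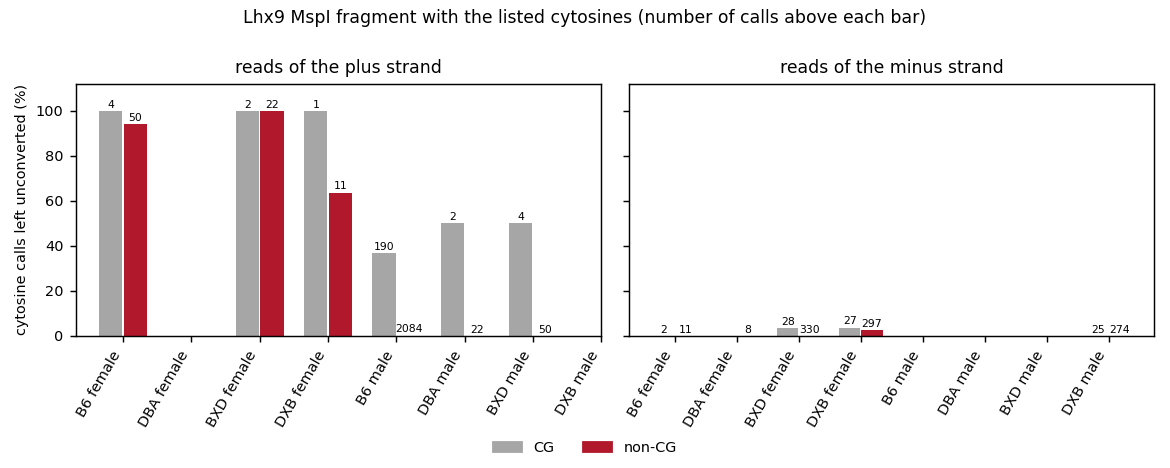
Percentage of cytosine calls left unconverted on the Lhx9 fragment that holds the listed cytosines, by mouse, read strand and context (grey CG, red non-CG), with the number of calls above each bar; mice without a number had no call. The 3 tall non-CG bars are females with 50, 22 and 11 calls, each from 1 or 2 reads, and the B6 male with 2084 calls is at 0.048%.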

How the data were processed

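The authors deposited, for each mouse, counts of unmethylated and methylated reads per cytosine and read class, with the methylated fraction beside them, from reads aligned to mm9 with BS Seeker and kept when unique (build per the submitters' processing notes, versions not given in the sources used here). Reads covering a SNP had been sorted to the B6 or DBA chromosome. Here counts were summed over read classes and levels taken from the counts. Depth per library is given in the report. Of the deposited tables of the authors' own comparisons (means, differences, p-values) only the positions of sex-specific cytosines were used. Genes and places came from the GENCODE annotation of NCBIM37, and islands from its sequence: 200-base windows, GC at least 50%, observed over expected CG at least 0.6, at least 300 bases.

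Class means were compared over mice by exact sign-flip permutation, and all CGs or genes were fitted with limma 3.58.1 (R 4.3.3, Benjamini-Hochberg, autosomes only). Intervals were exact Clopper-Pearson (scipy 1.17.1). The code was tested on simulated data. All 10 genes were named, every called CG, and the highest and lowest gene of each list. Members and lists were chosen with earlier results of these data known. Alternatives were minima of 5 and 20 reads, stricter islands (500 bases, GC 55%, ratio 0.65), read-weighted means, joined strands, another scale, test or gap, and each mouse left out; the means of gene means the fits without Lhx1 or Lhx3 and the Lhx9 gaps on unchanged CGs were added after the data were seen.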

Additional observations from a re-analysis of the deposited data

Results flagged for a closer look

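Among 78 groups of 4 mice of 1 sex, 5 class or gene means had a mouse far from the other 3, where chance gives about 1 in 20. In Lhx8 the other islands of the B6 male had 12.0%, while the other males had 2.92% to 3.63% (4 CGs). In Lhx2 the BXD female had 11.8% in other islands, against 6.29% to 7.14% in the other females, and a gene mean of 9.24% against 6.23% to 6.70%. The shores of Lhx5 were low in the B6 female, 20.5% against 26.3% to 27.4%. The 1 remaining CG of Lhx3 had 31.96% in the BXD female and 20.6% to 22.2% in the other females.

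The non-CG cytosines of the Lhx9 fragment stand outside the CG comparisons. The unconverted share on the plus strand was 94% in the B6 female, 100% in the BXD female and 63.6% in the DXB female. The share that 3 calls would make was 6%, 13.6% and 27.3% of the calls there. On the minus strand the DXB female had 2.69% (8 of 297 calls, from at most 27 reads), above 1.01%. Calls on 1 read are not independent, so passing this mark is not a test.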

How the results depend on the processing

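Of 403 recomputed values, 375 were counted as unchanged, among them each difference between region classes and each count of 0 for sex, F1 and the DBA share. For tests that means the same direction and side of the threshold, for counts and the median SD a like value. The Lhx9 gaps on unchanged CGs had no p, so only their direction could change. Size could still move. Without the DBA male the Lhx9 shores against relatives went from -14.8 to -2.32 points, and the Lhx9 F1 gap from 5.61 to 0.17 points. The Lhx9 remaining CGs against relatives gave 4.21 points (5 reads), -4.62 (stricter islands) and 5.53 (without Lhx3). Against developmental regulators, remaining CGs gave 5.78 (5 reads), -21.0 (20 reads), 5.61 (stricter islands) and 5.03 to 10.01 with single mice left out, beside 6.81. Promoter islands there gave 0.71 (stricter islands), 0.39 (read-weighted) and 0.35 to 1.09 (mice left out), beside 0.87, and other islands 0.087 as means of gene means, beside 2.68. Against liver genes, remaining CGs gave -10.4 (20 reads), -17.3 (stricter islands), -2.06 (read-weighted), -4.70 (gene means) and -1.34 to 2.58 (mice left out), beside 0.42. Against the list of partners, other islands gave -1.68 (20 reads), 0.32 (read-weighted), -10.5 (gene means) and -0.027 to 2.48 (mice left out), beside 1.42. The cause was not tested. Female parents gave 3 calls at 5 reads (0.681% of all CGs), 0 at 20 reads (0.521%) and 3 at a gap over 30 points (1.6%), beside 1, and male parents 3 at 5 reads (0.682%) and 2 at a gap over 30 points (1.54%), beside 0. With strain as a block, the sexes gave 0 calls in the family. The number of CGs read in all 8 mice limits the remaining class (5), Lhx3 (3), Lhx8 (6) and Lhx9 (7), and depth limits Lhx9, whose CGs had a median of 28 reads.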
